A study of Mus musculus with 13 samples.

Results

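Cholesterol synthesis, uptake and storage genes were compared between the 2 spermatogonial libraries of a mouse testis RNA-seq series. The genes were chosen by symbol from a list of 31, and 29 of these symbols are on a row of both deposited tables, out of 20662 symbols in all. Hmgcs1 and Tm7sf2 were not analysed here. The series holds 13 samples from testes of 8-week-old C57BL/6 mice, with no genetic change or treatment given in the labels. Values of 2 samples were used, KIT_AGSC and THY1_AGSC, both labelled as spermatogonia (the mitotic germ cells), and the other 11 (5 of spermatocytes, 5 of spermatids and 1 of mature sperm) were not analysed here. Each title names a surface antigen: KIT is the receptor for stem cell factor and is carried by differentiating spermatogonia, and THY1 is used to enrich undifferentiated ones. How the cells were isolated, and whether animals were pooled, is not given in the sources used here. There is 1 library in each group, so no difference below has a replicate check or a p-value, and each compares 2 libraries and not 2 conditions.

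The label check went against the titles. Kit was listed at 0 in the KIT-labelled library and at 36.7 FPKM in the THY1-labelled library, while Thy1 was at 78.8 and 0.723 FPKM. The value column of the sample titled KIT_AGSC is headed Thy1, and that of THY1_AGSC is headed Kit. Titles are followed here, and every direction would turn if they were exchanged. Of 13 spermatogonial markers, 5 were listed at 0 in the KIT-labelled library (38.5%, beside 33.2% of all genes). In the THY1-labelled library 2 were (15.4%, beside 24.2%). The defining markers Zbtb16 and Lin28a were listed at 0 in both. FPKM (fragments per kilobase, scaled to library size) is comparable between genes, and differences are given as log2(FPKM + 1), labelled KIT minus labelled THY1. That scale understates the change of low genes. Where 2 levels are given together, the KIT-labelled library comes first.

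Cells make cholesterol from acetyl-CoA through mevalonate, isoprenoids, squalene and lanosterol. When membrane sterol is low, SCAP carries the SREBP transcription factors out of the endoplasmic reticulum for activation, and INSIG proteins hold them back when sterol is high. Cells also take up lipoprotein cholesterol, release it in lysosomes, store it as esters or export it. In the testis, germ cells make sterol intermediates of this pathway during spermatogenesis, and Leydig cells turn cholesterol into testosterone.

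Most of these genes were higher in the THY1-labelled library. Of the 28 that reached 1 FPKM in either library, 19 were at least 2-fold higher there (67.9%), against 41.1% of the 15573 genes that did so in the whole table. In the KIT-labelled library 5 were at least 2-fold higher (17.9%), against 39.5% of all genes. These 5 were Fdps, Fdft1, Lss, Acat3 and Npc1, and the other 4 (Mvd, Srebf1, Scap and Acat1) lay within 2-fold. An exon of another gene overlaps each of the 5 higher in the KIT-labelled library, and also Cyp51, Srebf1 and Scap, and Acat2 shares sequence with Acat3, so the values of these genes are less certain. The median difference was -2.19, beside -0.0026 over all genes. At a limit of 4-fold, 16 genes were higher in the THY1-labelled library and 2 in the KIT-labelled library, where the shares over all genes were 29.4% and 23.8%. Of the 29 genes, 7 were listed at 0 in the KIT-labelled library (24.1%, beside 33.2% of all genes) and 1 in the THY1-labelled library (3.45%, beside 24.2%). Among genes above 0 in both libraries, 12 of 21 were higher in the THY1-labelled library (57.1%, beside 33.9% of all such genes) and 5 in the other (23.8%, beside 41.5%).

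**Figure D1:**
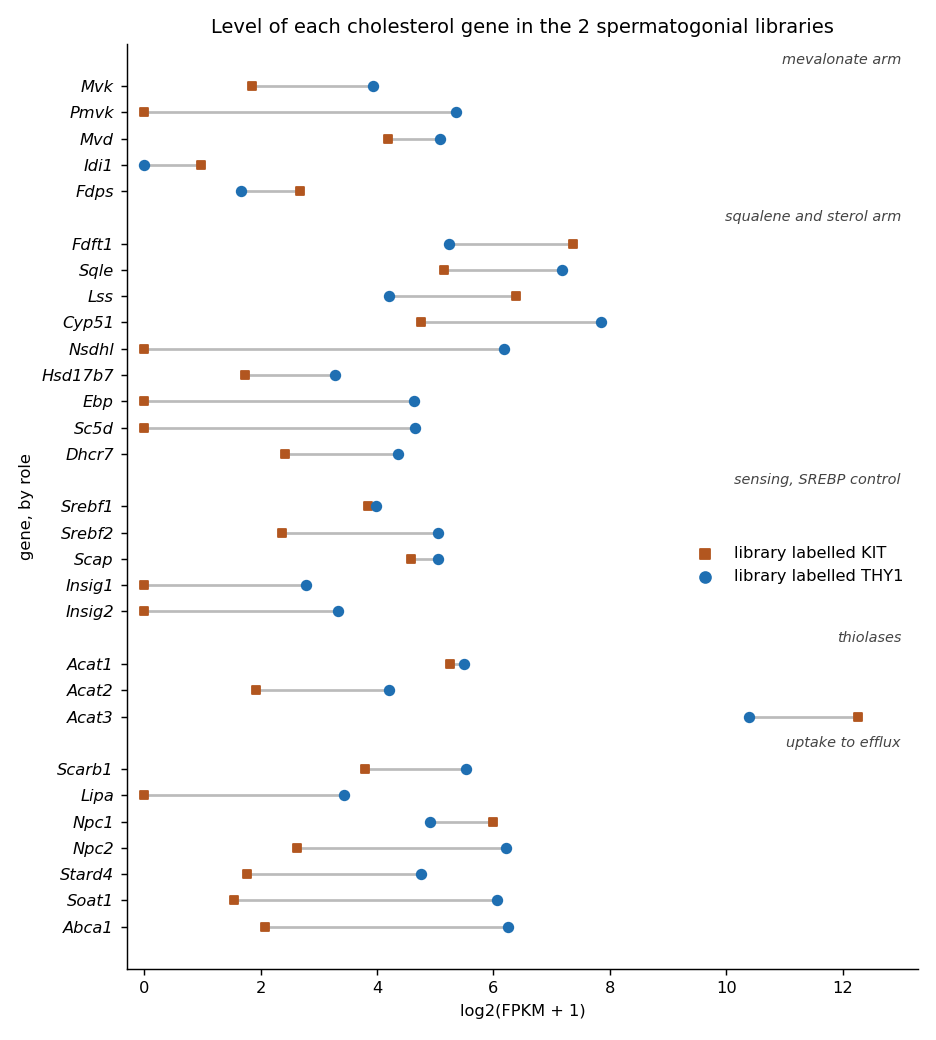
Level of each of the 29 genes on the log2(FPKM + 1) axis, with squares for the KIT-labelled library and circles for the THY1-labelled library, grouped by role. In 5 usable genes (Fdps, Fdft1, Lss, Acat3 and Npc1) the square lies at least 2-fold to the right of the circle, and 7 squares lie at 0.

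The depth of the libraries is not known. The product of FPKM and transcript length, taken at percentile 5 of nonzero genes, was 2735 in the KIT-labelled library and 427 in the THY1-labelled library. If that low end stands for about 1 fragment, 1 fragment was worth 6.41 times more FPKM in the former. In these units, with the median length of a gene's coding transcripts, 12 of the 22 cholesterol genes above 0 in the KIT-labelled library were below 10, and 1 of 28 in the THY1-labelled library. With the longest transcript the former count was 10. Differences resting on such low values are therefore imprecise, above all, of the genes counted here, for Mvk, Fdps, Dhcr7, Acat2, Stard4 and Soat1, each below 2 units in the KIT-labelled library by the median length. A listed 0 may also be a failed estimate, since Ppia, which nearly every cell uses, was listed at 0 in both libraries.

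The mevalonate arm makes the isoprenoid units from which sterols are built, and its genes were low to moderate in both libraries. Pmvk, phosphomevalonate kinase, was listed at 0 in the KIT-labelled library and at 39.8 FPKM in the THY1-labelled library. Mvk, mevalonate kinase, was at 2.60 and 14.3 FPKM, a difference of -2.09. Mvd, which decarboxylates the diphosphate, was at 17.1 and 32.8 FPKM, a difference of -0.90. These consecutive enzymes were thus all higher in the THY1-labelled library, Mvd by less than 2-fold. Fdps, farnesyl diphosphate synthase, was the reverse at 5.39 FPKM in the KIT-labelled library and 2.18 in the THY1-labelled library, a difference of 1.01 that only just passes the limit. Idi1, which isomerises isopentenyl diphosphate, was at 0.962 FPKM in the KIT-labelled library and listed at 0 in the other, below the minimum for counting.

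The squalene and sterol arm split into 2 genes higher in the KIT-labelled library and 7 higher in the THY1-labelled library, with none within 2-fold. These shares were 22.2% and 77.8%, beside 39.5% and 41.1% of all genes. Fdft1, squalene synthase, which commits farnesyl diphosphate to sterols, was at 163 FPKM in the KIT-labelled library and 36.9 in the THY1-labelled library, a difference of 2.12. Lss, lanosterol synthase, was at 82.8 and 17.4 FPKM, a difference of 2.18. Sqle, the squalene epoxidase that acts between these enzymes, was the reverse, at 34.5 FPKM in the KIT-labelled library and 143 in the THY1-labelled library, a difference of -2.02. Neighbouring steps of the pathway therefore stood in opposite order in the 2 libraries. Cyp51, the demethylase that acts on lanosterol, was at 26.0 and 229.6 FPKM, an 8.82-fold higher level in the THY1-labelled library and a difference of -3.09. Its level there was second only to Acat3 among the 29 genes.

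The later enzymes were each higher in the THY1-labelled library. Nsdhl, a sterol dehydrogenase that acts in demethylation at C-4, was listed at 0 in the KIT-labelled library and at 71.8 FPKM in the THY1-labelled library. Sc5d, the sterol desaturase, was likewise at a listed 0 and 24.2 FPKM. Ebp, the sterol isomerase, was at a listed 0 and 23.7 FPKM. Nsdhl and Ebp are both on the X chromosome. Dhcr7, which makes cholesterol from its dehydro precursor, was at 4.35 and 19.5 FPKM, a difference of -1.93. Hsd17b7, the ketosteroid reductase of the same demethylation complex, was at 2.31 and 8.71 FPKM, a difference of -1.55. At their level in the THY1-labelled library, Nsdhl would be worth 56.9 low-end units in the KIT-labelled library, Pmvk 15.5, Sc5d 14.8 and Ebp 9.85. These listed zeros, of the sterol arm and of Pmvk in the mevalonate arm, were thus at genes whose level in the other library was above the low end. Ebp lay just below 10 units.

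Promoter sequence was examined because most of these genes stood in the same direction. The RefSeq promoter table (build GRCm38.p6, another build than the mm9 of the submitters' processing notes, 250 bases before the annotated start and 50 from it on) matched 21 of the 29 genes, with 29 promoters. Fdps, Fdft1, Sqle, Acat1, Acat3, Scarb1, Stard4 and Npc1 had no entry. The promoters of Mvk, Nsdhl and Cyp51, higher in the THY1-labelled library, and of Lss, higher in the KIT-labelled library, are printed 5′ to 3′ on the strand of the gene, with CCAAT boxes and GC boxes on either strand in capitals.
Mvk, chr5:114444019-114444318, plus strand: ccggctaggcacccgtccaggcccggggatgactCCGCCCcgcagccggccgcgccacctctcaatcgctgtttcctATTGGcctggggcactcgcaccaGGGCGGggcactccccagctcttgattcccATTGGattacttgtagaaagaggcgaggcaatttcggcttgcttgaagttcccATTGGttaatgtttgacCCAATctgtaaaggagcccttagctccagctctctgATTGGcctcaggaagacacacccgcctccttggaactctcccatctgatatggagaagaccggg
Nsdhl, chrX:72918271-72918570, plus strand: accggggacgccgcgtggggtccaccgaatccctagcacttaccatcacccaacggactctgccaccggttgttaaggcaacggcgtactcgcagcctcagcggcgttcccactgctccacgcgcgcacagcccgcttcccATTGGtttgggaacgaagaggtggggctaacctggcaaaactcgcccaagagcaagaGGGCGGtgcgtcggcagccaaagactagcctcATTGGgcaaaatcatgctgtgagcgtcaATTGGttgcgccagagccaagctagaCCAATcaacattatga
Cyp51, chr5:4104648-4104947, minus strand: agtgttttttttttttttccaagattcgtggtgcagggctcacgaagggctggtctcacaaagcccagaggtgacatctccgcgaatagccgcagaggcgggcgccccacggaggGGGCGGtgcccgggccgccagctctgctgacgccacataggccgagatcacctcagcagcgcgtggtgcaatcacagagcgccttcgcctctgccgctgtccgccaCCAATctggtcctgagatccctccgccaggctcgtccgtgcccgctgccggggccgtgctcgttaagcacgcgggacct
Lss, chr10:76531355-76531654, plus strand: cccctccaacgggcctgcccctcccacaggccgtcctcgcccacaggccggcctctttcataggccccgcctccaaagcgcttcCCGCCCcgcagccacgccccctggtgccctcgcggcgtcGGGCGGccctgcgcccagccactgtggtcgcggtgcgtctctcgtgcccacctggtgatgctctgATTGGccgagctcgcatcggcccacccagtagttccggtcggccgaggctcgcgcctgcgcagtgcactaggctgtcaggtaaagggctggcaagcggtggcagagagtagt

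The CCAAT box, the letters CCAAT bound by NF-Y, was in a promoter of 18 of the 21 genes (85.7%), beside 42.2% of the 10767 genes with an entry that reached 1 FPKM in either library and 41.1% of 27025 genes in the promoter table. The GC box, the letters GGGCGG bound by Sp1, was in 20 of 21 (95.2%), beside 61.0% and 38.2%. These shares count a match in any promoter of a gene. By promoter, the CCAAT box was in 19 of 29 (65.5%), beside 37.4% of 32851 in the promoter table. The GC box was in 24 of 29 (82.8%), beside 35.7%. Both backgrounds by promoter include genes that did not reach 1 FPKM, and shares by promoter without them were not computed. NF-Y and Sp1 are known partners of SREBP at sterol-regulated promoters. Mvk held 5 CCAAT boxes, Nsdhl 4, and Cyp51 and Lss 1 each, so the box was present in promoters of genes from both directions. Of these 21 genes only Lss was higher in the KIT-labelled library, so directions could not be compared by motif. The sterol regulatory letters TCACNCCAC were in no promoter of the 21 genes, beside 1.46% of the 10767 genes. The cAMP response element TGACGTCA was in none either, beside 3.13%. At such low background shares, the lack of a match among 21 genes says little. Other forms of these elements were not searched. All 4 motifs were searched on both strands, and no 2 of them overlap in the printed promoters. A match describes letters and not a bound site.

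**Figure D2:**
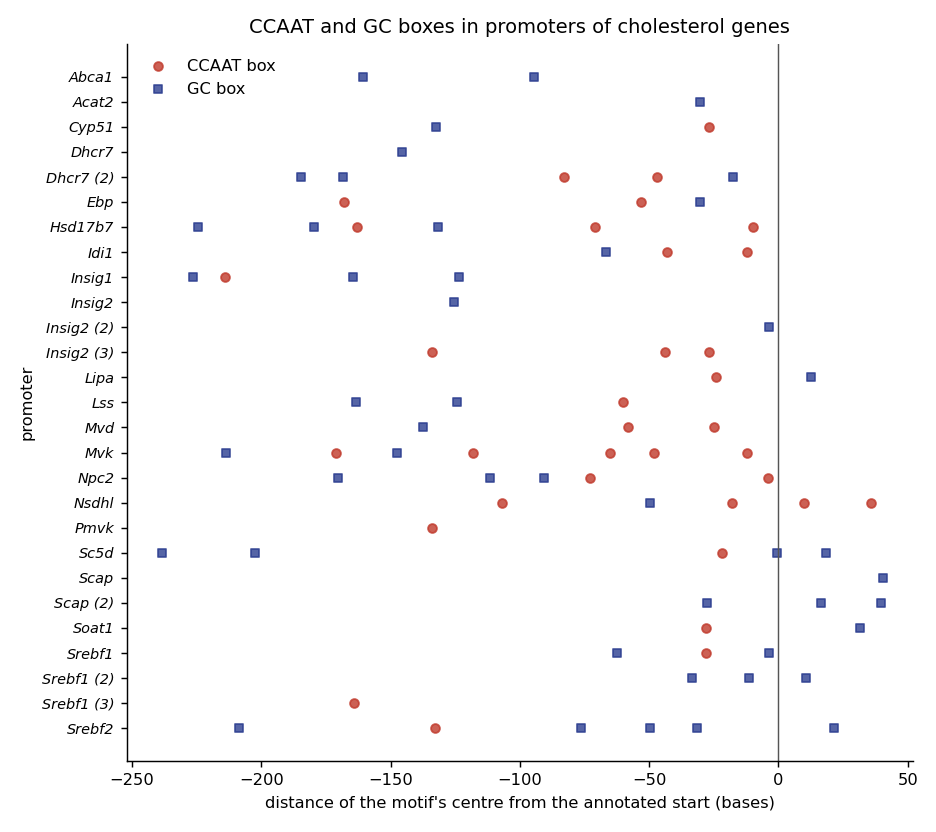
Position of CCAAT boxes (circles) and GC boxes (squares) relative to the annotated start, in bases, for the 27 of 29 promoters that hold either; a number in brackets marks a further promoter of the same gene. Mvk holds 5 CCAAT boxes and Nsdhl 4, and boxes lie on both sides of the start.

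Among the 5 regulators, 3 (Srebf2, Insig1 and Insig2) were at least 2-fold higher in the THY1-labelled library and 2 (Srebf1 and Scap) lay within 2-fold. The former share was 60%, beside 41.1% of all genes, and is coarse with 5 genes. Srebf2, the SREBP that mainly drives cholesterol synthesis, was at 4.16 FPKM in the KIT-labelled library and 32.3 in the THY1-labelled library, a difference of -2.69. Srebf1, the SREBP tied mainly to fatty acid synthesis, was at 13.4 and 14.9 FPKM, a difference of -0.14. The order of the 2 factors was thus reversed between the libraries, with Srebf1 above Srebf2 in the KIT-labelled library and below it in the THY1-labelled library. Scap was at 23.0 and 32.1 FPKM, a difference of -0.46. Insig1, itself an SREBP target, was at a listed 0 and 5.90 FPKM, and Insig2 at a listed 0 and 9.09 FPKM. At those levels they would be worth 5.82 and 1.85 low-end units in the KIT-labelled library (8.96 for Insig2 by its longest transcript), so these 2 zeros rest on the least depth among the 7.

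The acetoacetyl-CoA thiolases stand at the entry to the pathway, and their symbols are easily taken for that of the cholesterol-esterifying enzyme, which is Soat1. Acat3 was the most abundant of the 29 genes in both libraries, at 4912 FPKM in the KIT-labelled library and 1335 in the THY1-labelled library, a difference of 1.88. It made up 90.6% of the summed FPKM of the 29 genes in the former and 53.9% in the latter. Without it, the sum was 509 FPKM in the KIT-labelled library and 1143 in the THY1-labelled library, so the direction of the sum depends on this gene. These sums are of unscaled values. All genes together summed to 1.52e+06 FPKM in the KIT-labelled library and 804044 in the THY1-labelled library. The noncoding RNA Rpph1 made up 71.8% and 37.9% of these totals. Acat2, the cytosolic thiolase of sterol synthesis, was the reverse of Acat3 at 2.77 and 17.4 FPKM, a difference of -2.29. Acat1, the mitochondrial thiolase of ketone and isoleucine metabolism, was at 37.2 and 44.2 FPKM, a difference of -0.24. Each of the 3 thiolases thus took a different place relative to the 2-fold limit.

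Acat2 and Acat3 are near-identical copies on chromosome 17, so the division of reads between them is uncertain. Their coding sequences (GENCODE M21, build GRCm38, minus strand) are both 1194 bases long, align without a gap, are 97.7% identical with 27 differing bases, and share an identical run of 357 bases. Coding bases 1 to 150 are shown because they hold 11 of the 27 differences, in capitals.
Acat2: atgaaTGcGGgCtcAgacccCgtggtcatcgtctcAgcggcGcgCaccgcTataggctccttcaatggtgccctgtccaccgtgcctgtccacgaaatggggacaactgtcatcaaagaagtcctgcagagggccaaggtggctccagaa
Acat3: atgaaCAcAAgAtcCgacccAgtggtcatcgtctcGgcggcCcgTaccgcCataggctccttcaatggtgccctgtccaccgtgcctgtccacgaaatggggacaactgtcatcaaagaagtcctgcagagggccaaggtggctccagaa
Of the 50-base words of the longest coding transcript of Acat3, 59.4% also occur, on either strand, in transcripts of other genes (48.2% in Acat2), and for Acat2 the share was 45.9%. Outside such words, reads can tell these genes apart, and how reads with several placements were handled is not given in the sources used here.

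The genes of uptake, release, transport, storage and export were higher in the THY1-labelled library for 6 of 7 (85.7%, beside 41.1% of all genes). Soat1, which esterifies cholesterol for storage in droplets, was at 1.91 FPKM in the KIT-labelled library and 65.5 in the THY1-labelled library, a 34.3-fold higher level and a difference of -4.52. Abca1, which exports cholesterol to apolipoproteins, was at 3.20 and 75.3 FPKM, 23.5-fold higher and a difference of -4.18. Soat1 and Abca1 thus held the largest ratios among the cholesterol genes above 0 in both libraries. The ratio of Soat1 is imprecise, since its level in the KIT-labelled library was worth 1.31 low-end units by the median length. Npc2, the soluble lysosomal protein that binds released cholesterol, was at 5.15 and 73.0 FPKM, a difference of -3.59. Its membrane partner Npc1 was the exception of the group, at 62.9 FPKM in the KIT-labelled library and 29.0 in the THY1-labelled library, a difference of 1.09. The 2 proteins hand cholesterol to each other, and their transcripts stood in opposite order in the 2 libraries.

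Stard4, a cytosolic sterol carrier, was at 2.40 FPKM in the KIT-labelled library and 25.9 in the THY1-labelled library, a difference of -2.98. Scarb1, the receptor that takes up cholesterol esters from HDL, was at 12.9 and 45.1 FPKM, a difference of -1.73. Lipa, the lysosomal acid lipase that frees cholesterol from its esters, was at a listed 0 and 9.86 FPKM, which would be worth 10.7 low-end units in the KIT-labelled library. All 3 were again on the side of the THY1-labelled library.

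**Figure D3:**
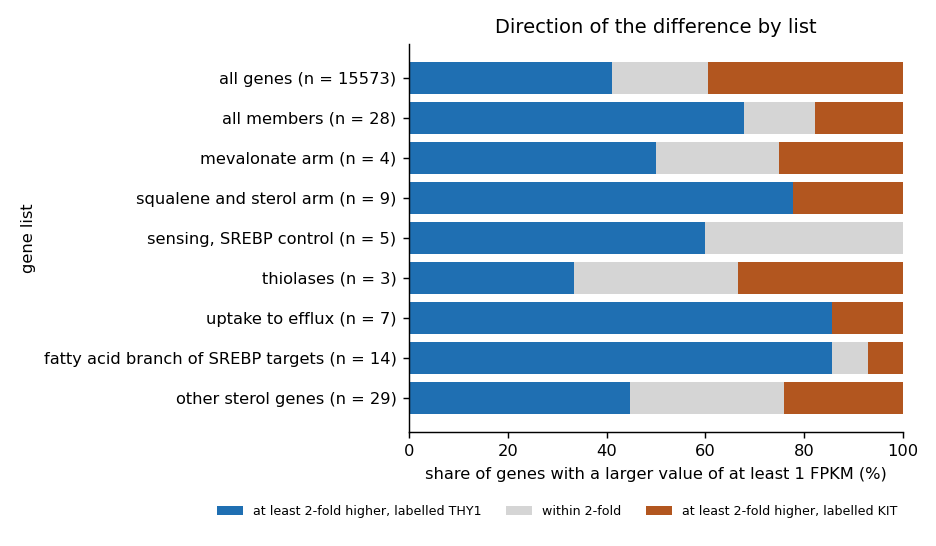
Share of genes, in percent, at least 2-fold higher in the THY1-labelled library (blue), within 2-fold (grey) or at least 2-fold higher in the KIT-labelled library (brown), for all 15573 genes, the 28 usable cholesterol genes, their 5 roles and 2 further lists. The blue share is 41.1% for all genes and 67.9% for the cholesterol genes, and roles of 3 to 9 genes have coarse shares.

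Other lipid genes were taken from 2 lists. Fatty acid genes regulated by SREBP were at least 2-fold higher in the THY1-labelled library for 12 of 14 usable genes and in the KIT-labelled library for 1, Thrsp, with a median of -3.20. These shares were 85.7% and 7.14%, beside 41.1% and 39.5% of all genes. Fads2, a fatty acid desaturase, was at 12.7 FPKM in the KIT-labelled library and 373 in the THY1-labelled library. Acly, which makes cytosolic acetyl-CoA, was at 12.9 and 145 FPKM, and the fatty acid synthase Fasn at 2.75 and 51.8. The elongase Elovl5 and the acyltransferase Gpam were at a listed 0 and at 72.1 and 37.5 FPKM. Substrate supply and desaturation thus stood on the same side as Sqle and Cyp51. Of 29 usable other sterol genes, 13 were higher in the THY1-labelled library and 7 in the KIT-labelled library, with a median of -0.60. The former share (44.8%) was near the 41.1% of all genes. Among the 7, and chosen after their values were seen, Pdss1, which makes the side chain of ubiquinone, was at 97.1 and 18.1 FPKM and the ubiquitin ligase Syvn1 at 76.8 and 19.1. Sc4mol, the sterol demethylase that acts with Nsdhl and Hsd17b7, was at a listed 0 and 86.7 FPKM, and Por, the reductase that feeds electrons to Cyp51 and Sqle, at 12.3 and 168. With the KIT-labelled library first, the sterol hydroxylase Cyp27a1 was at 1.84 and 48.4 FPKM, Erlin1 at 0.819 and 27.5, and Stard3 at a listed 0 and 13.2.

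Leydig and spermatocyte markers stood mostly on the same side as the cholesterol genes, and the other marker lists were divided. Of 7 Leydig markers, 6 were at least 2-fold higher in the THY1-labelled library, with a summed level of 165 FPKM in the KIT-labelled library and 6469 in the THY1-labelled library, and Hsd3b6 and Hsd17b3 were listed at 0 in the former. All 13 spermatocyte markers were higher there too, with sums of 174 and 7966 FPKM, and 5 of them (Dmc1, Hormad1, Tex11, Adam2 and Tex101) were listed at 0 in the KIT-labelled library. Of 10 macrophage markers, 3 were higher in the THY1-labelled library and 5 in the KIT-labelled library, with sums of 276 and 968 FPKM and C1qc listed at 0 in the THY1-labelled library. Aif1 alone was at 24.5 and 880.5 FPKM, and without it the macrophage sums were 251 and 87.8 FPKM, the opposite order. Of 10 usable spermatogonial markers, 5 were higher in the THY1-labelled library and 4 in the KIT-labelled library, with sums of 191 and 143 FPKM. Without Nanos3 these sums were 73.4 and 140.2 FPKM. Gfra1, Id4, Nanos2 and Nanos3, known from undifferentiated spermatogonia, were the 4 higher in the KIT-labelled library (Nanos2 at 54.1 and 1.49 FPKM, Nanos3 at 118 and 2.74). Kit and Stra8 (0.743 and 34.1 FPKM), known from differentiating ones, were among the 5 higher in the THY1-labelled library. The rest of these 5 were Uchl1 (3.26 and 49.5 FPKM), Sohlh2 (a listed 0 and 5.86) and Dmrt1 (a listed 0 and 4.98). No stage is assigned to them here, so the list as a whole was not divided by stage. Sertoli markers had 3 of 8 usable genes higher in the THY1-labelled library and 4 in the other (sums of 913 and 31.2 FPKM, THY1-labelled first), of which Clu alone made 848 and 1.62, peritubular and stromal markers 3 and 3 of 6 (196 and 181), and spermatid markers 5 and 5 of 10 (2499.8 and 4937). The part of these cells in the cholesterol results was not tested. In such bulk samples, fewer cells of a type and less RNA per cell cannot be told apart.

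A check made after the values had been seen concerned exons shared in position with another gene. In GENCODE M21, an exon of another gene overlaps, on either strand, the exons of 8 of the 28 usable genes, and all 5 genes higher in the KIT-labelled library are among these 8. The rest of the 8 were Srebf1 and Scap, within 2-fold, and Cyp51, higher in the THY1-labelled library. Of the 20 genes with no such overlap, 18 were at least 2-fold higher in the THY1-labelled library and 0 in the KIT-labelled library. Over all genes the contrast was small: 42.1% of 4791 overlapped genes and 37.7% of 9017 others were higher in the KIT-labelled library, and 36.2% and 44.1% in the THY1-labelled library.

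The partners were as follows. Ctsb, a lysosomal protease on the opposite strand, covers 774 exonic bases of Fdft1 (18.3%) and was at 56.8 FPKM in the KIT-labelled library and 108 in the THY1-labelled library. Tcp1, a chaperonin subunit on the opposite strand, covers 571 bases of Acat3 (23.5%) and was at 27.6 and 509 FPKM. Rmc1, on the opposite strand of Npc1 and listed under its older symbol, covers 511 bases (4.52%) and was at 38.4 and 58.8 FPKM. Tcp1 was thus at least 2-fold higher in the THY1-labelled library, and Ctsb and Rmc1 were higher there by less than 2-fold. For Lss the partner was 4930483K19Rik (381 bases, 3.53%, opposite strand) and for Fdps Gm43738 (1124 bases, 26.7%, same strand), neither analysed here. Of the other overlapped genes, Cyp51 is covered over 166 bases (3.76%) by Akap9 on the opposite strand, at 9.32 and 30.6 FPKM, so both were higher in the THY1-labelled library. Srebf1 is covered over 109 bases (1.93%) by Rai1 on the opposite strand, at 6.84 and 2.78 FPKM, and Scap over 985 bases (13.2%) by 5830462I19Rik, not analysed here. Fdps also shared 86.4% of its 50-base words with transcripts of 8 other genes, the largest share of the 29, and all 5 genes higher in the KIT-labelled library shared some (4.35% to 86.4%). Of the 19 genes higher in the THY1-labelled library, 14 shared none. Shared words were not counted over all genes, so this split has no background share. The libraries are directional per the labels, but whether the authors' values used the strand is not given in the sources used here. The part of overlapping or shared sequence in these differences was not tested.

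**Figure D4:**
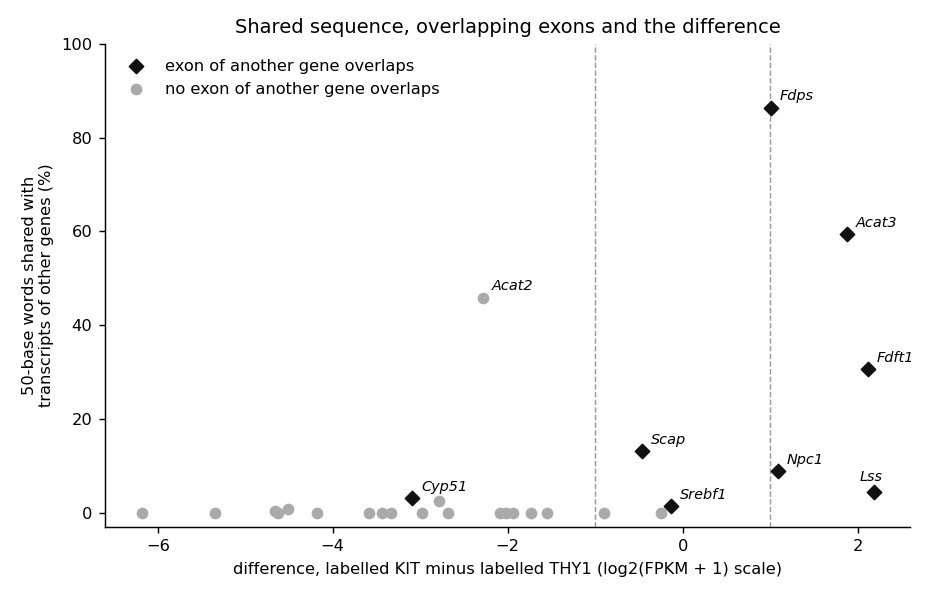
Share of 50-base words found in transcripts of other genes (vertical axis, percent) against the log2(FPKM + 1) difference, for the 28 usable genes, with diamonds for genes overlapped by an exon of another gene and dashed lines at 2-fold. The 5 genes right of the upper line are all diamonds, and Fdps lies highest at 86.4%.

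Directions of the single genes were then compared under 5 settings, the main one, a pseudocount of 0.1 and 3 scalings. The scalings moved the median of all genes from -0.0026 to -0.57 (median ratio of 1), 0.26 (upper quartile) and 0.22 (sum without the abundant noncoding RNA Rpph1). All 19 genes higher in the THY1-labelled library stayed at least 2-fold higher under these 5 settings. For the 7 of them listed at 0 in the KIT-labelled library this outcome was fixed. Scaling that library leaves a 0 unchanged, and a smaller pseudocount widens the difference. Of the 5 genes higher in the KIT-labelled library, Fdft1, Lss and Acat3 stayed past 2-fold, with lowest differences of 1.56, 1.63 and 1.32. The difference of Fdps was 0.55 and that of Npc1 0.54 with a median ratio of 1. Srebf1 and Acat1 changed sign with the setting, from -0.65 to 0.12 and from -0.79 to 0.02. Mvd and Scap kept a negative sign, with values nearest 0 of -0.64 and -0.20, and Mvd reached -1.43 with a median ratio of 1.

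**Figure D5:**
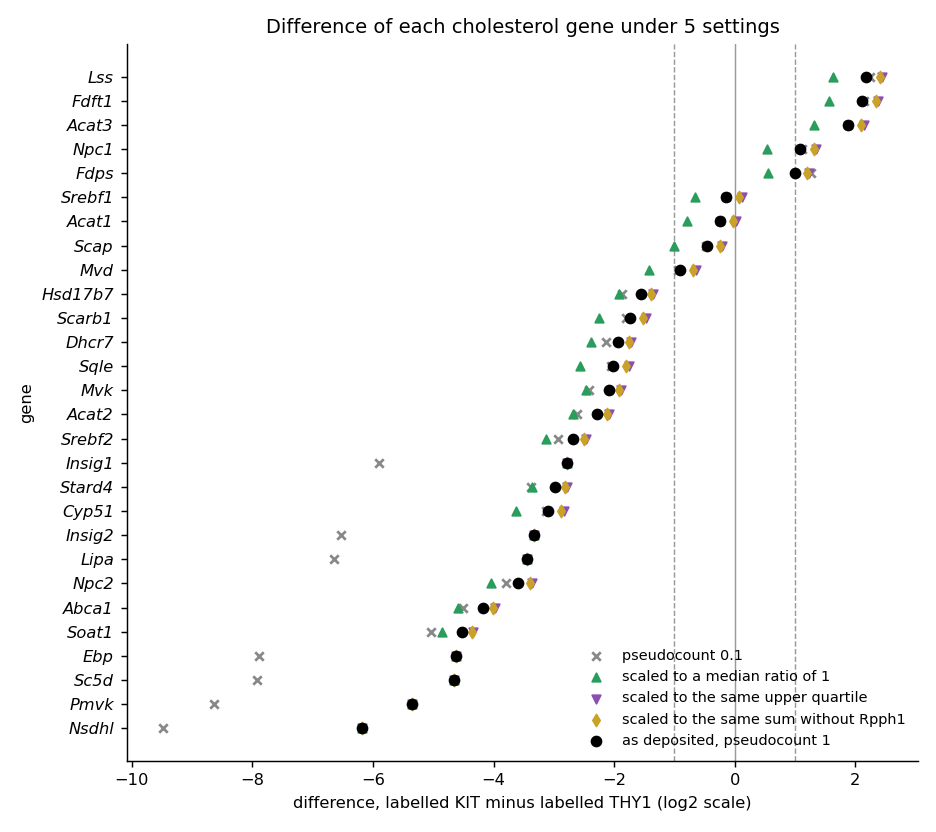
Difference of each of the 28 usable genes on the log2 scale (labelled KIT minus labelled THY1) under 5 settings, with dashed lines at 2-fold. Genes listed at 0 in the KIT-labelled library move only with the pseudocount, and Fdps and Npc1 lie inside the lines when scaled to a median ratio of 1.

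The order of levels among the genes differed between the libraries as well. In the KIT-labelled library the highest were Acat3, Fdft1, Lss, Npc1 and Acat1, and in the THY1-labelled library Acat3, Cyp51, Sqle, Abca1 and Npc2. Among all listed genes, Cyp51 stood at percentile 84.6 in the former and 98.5 in the latter. Fdft1 stood at percentile 97.9 and 85.1, and Soat1 at 46.3 and 91.6. Across the 28 genes, whose values share libraries and depth, levels on the log2(FPKM + 1) scale correlated between the libraries with a Pearson r of 0.59 and a Spearman rho of 0.39, beside an r of 0.15 over all 15573 genes. Without Acat3 these values were 0.31 and 0.32.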

How the data were processed

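RNA was measured by directional RNA-seq of rRNA-depleted total RNA, per the labels' protocols. The deposited tables hold 1 decimal value per gene symbol with no unit in their headers. The values were taken as FPKM because the submitters' processing notes name Cufflinks 2.1.1, beside TopHat 1.4.1, CASAVA and mm9. The annotation, filters, use of strand and handling of reads with several placements are not named in these sources. Reads could be lost from, or split between, near-identical genes.

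Tables were assigned to samples as the series records them and grouped by title. Differences were log2(FPKM + 1) with a pseudocount of 1, for genes that reached 1 FPKM in either library. With 1 library a group, genes were counted by 2-fold and no statistical test between libraries was made. The counting step was checked on simulated data. Every member is described, and other genes come from 2 lists, with up to 4 genes of the largest difference and 2 of the highest mean named. A gene named by this rule is not reported here. Members, lists and settings were chosen with earlier results of these data known. Alternatives were a pseudocount of 0.1, 3 scalings, no minimum or 5 FPKM, genes above 0 in both libraries, and a fold of 4. Depth is unknown and was gauged from single-transcript genes over 1000 bases. Transcript lengths, exon overlaps and 50-base words came from GENCODE M21 and promoters from RefSeq, both GRCm38, matched by symbol. Python 3.11.15, numpy 2.4.6, pandas 2.3.3 and matplotlib 3.10.9 were used.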

Additional observations from a re-analysis of the deposited data

How the results depend on the processing

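The 19 genes higher in the THY1-labelled library and the 5 higher in the KIT-labelled library were recounted under 8 alternatives. The former count stayed at 16 to 20 under all but 1 alternative. It was 12 of 21 when only genes above 0 in both libraries were kept. That setting removes the 7 genes listed at 0 in the KIT-labelled library. The scalings and the smaller pseudocount could not bring those 7 within 2-fold. The latter count was 3 with a median ratio of 1 and 2 at a fold of 4, and 5 or 6 otherwise. It was 6 with the same upper quartile and the same sum without Rpph1, which took in Idi1 (0.962 FPKM and a listed 0 as deposited). Those scalings, and the setting without a minimum, covered 29 genes. The median of the 28 genes was -2.19 in the main setting. It was -2.51 with a pseudocount of 0.1, -2.62 with a median ratio of 1, -1.89 with the same upper quartile, -1.92 with the same sum without Rpph1, -2.09 without a minimum and -1.73 over genes above 0 in both libraries, where the median of all genes was 0.42. It stayed negative under every alternative run. No paired analysis was possible because each spermatogonial group has 1 library, which also leaves no replicate to leave out. By the low end of values, depth limits the KIT-labelled library most, where 12 of 22 genes above 0 lay below 10 low-end units.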
